A study of Mus musculus with 6 samples.

Results

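The 9 genes described here encode the proteins that cut, export and use small regulatory RNAs: Drosha, Dgcr8, Xpo5, Dicer1, Tarbp2 and the Argonautes Ago1, Ago2, Ago3 and Ago4. They were taken by symbol from the 25239 genes of the deposited count table, which held all 9. Transcripts were counted in 6 libraries of mouse oocytes at the germinal vesicle stage, when the oocyte is arrested in meiotic prophase with an intact nucleus. The mice were CD-1 females, an outbred strain, 4 to 6 weeks old. Cumulus-oocyte complexes (an oocyte with the follicle cells around it) were microinjected with water (3 libraries) or with a mixture of metabolites of phthalates, a class of plasticizers (3 libraries). All complexes were then cultured in maturation medium with 10% fetal bovine serum and 200 mIU/mL follicle-stimulating hormone. The labels give neither the make-up nor the dose of the mixture. The comparison addresses how the mixture affects oocyte transcripts.

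A microRNA starts as a hairpin in a longer nuclear transcript. DROSHA and its RNA-binding partner DGCR8 cut out the hairpin, exportin-5 (Xpo5) carries it to the cytoplasm, and DICER1 with its partner TRBP (Tarbp2) cuts it into a short duplex. An Argonaute protein keeps one strand and uses it to find target messages, and AGO2 can also cleave them. Endogenous small interfering RNAs arise from long double-stranded RNA and need DICER1 but not DROSHA and DGCR8. In mouse oocytes this second class is known to be active, whereas microRNAs are known to have little effect on their targets there.

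The libraries held between 252267 and 300917 gene counts each, 854185 in all with water and 822225 with phthalates. Their titles call each library a GV oocyte, but the labels name no animal or culture. The wording on lysis leaves it unclear whether each library was a separate oocyte or each group came from only 1, in which case its 3 libraries are technical repeats. Which reading holds cannot be told from the labels, so numbered oocytes stand for libraries and SDs give the spread between libraries. Each group was therefore treated as 1 sample. Values are given per oocyte library and group ratios come from summed counts, without a test against the spread between animals. All 10 oocyte markers examined had counts, 9 of them in every library, and their sum ranged from 5709 to 6956 counts per library. Of 20 cumulus and granulosa markers, 9 were at 0 in all libraries, among them Amh and Foxl2. Their summed counts ranged from 10 to 43 per library, with group sums of 83 (water) and 54 (phthalate), most of them from Nr5a2. Of 8 stromal and blood markers, 6 were at 0 throughout, and Pecam1 held nearly all counts of the other two.

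The pathway was present, and very unequally so. Dicer1 alone held 65.8% of all counts on the 9 genes (1241 of 1886, 95% exact interval 62.7 to 68.8), followed by Tarbp2 with 12.7%. Ago2, Drosha, Xpo5 and Ago3 held between 3.08% and 6.73% each. Dgcr8 held 15 counts over the 6 libraries, Ago1 6 and Ago4 2. Small counts in this table were mostly even (68.0% to 71.1% of the values from 1 to 20), as they would be if each mate of a pair added 1 count. Intervals were for that reason computed on counts halved to read pairs. They cover counting error only, since PCR copies are not independent molecules.

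The nuclear steps come first in the pathway, and their genes had fewer counts than Dicer1 and Tarbp2. Drosha, the nuclear RNase, had 59.4, 43.2 and 56.4 CPM (the counts of a gene scaled to the same total of gene counts in every library) in water oocytes 1, 2 and 3, and 99.1, 74.6 and 43.6 CPM in phthalate oocytes 1, 2 and 3. Phthalate oocytes 1 and 2 lay above all water oocytes, while phthalate oocyte 3 lay between the lowest and the next water oocyte, so the groups overlapped. The summed counts were 45 and 59, a log2 ratio of phthalate over water of 0.46 (95% interval on read pairs -0.38 to 1.32).

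Dgcr8, which recognizes the hairpin for DROSHA, had only 2, 4 and 3 counts in the water oocytes, against 2, 3 and 1 in those given phthalates. Its log2 ratio of -0.51 had an interval from -3.24 to 1.94, so differences anywhere within these limits were not detectable at this depth. Dgcr8 lies at chr16:18253948-18289246 (minus strand, build GRCm38.p6) and overlaps Trmt2a, a tRNA methyltransferase gene on the opposite strand. Of the 50-base windows of its longest transcript, 26.3% also occur in transcripts of other genes, mostly Trmt2a. Trmt2a itself had 20 counts with water and 18 with phthalates. The use of strand in the counting is not given in the sources used here, so reads of the shared stretch could belong to either gene.

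Xpo5, the export receptor of the hairpin, varied most among the 6 members that passed a filter on low counts (edgeR's default filter). It had 18.6, 79.8 and 42.3 CPM in the water oocytes, against 63.4, 47.5 and 80.0 CPM in those given phthalates. Water oocyte 1 was the lowest, and water oocyte 2 was level with the highest phthalate oocyte. The log2 ratio was 0.42 (-0.48 to 1.33), from 41 and 52 counts. Its size rested on single water oocytes, with 0.039 without water oocyte 1 and 1.07 without water oocyte 2.

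Dicer1, at chr12:104687742-104751952 (minus strand), was the member measured with the most precision. Its level was 686, 841 and 708 CPM in the water oocytes, against 749, 712 and 738 CPM in those given phthalates. The phthalate oocytes lay inside the range of the water oocytes, and water oocyte 2 was the highest of all. The log2 ratio was -0.014 (-0.25 to 0.22), from 639 and 602 counts, which in linear terms is a ratio of 0.990 with limits of 0.843 and 1.16. Relative to pure counting noise on read pairs, the variance of Dicer1 over the 6 libraries was 0.590, against a median of 1.16 over the 4644 genes that passed the filter. The shape of its values over the 6 libraries was closest to that of Plekhg3, Hmgb2 and Tspan14, at root-mean-square differences of 0.056, 0.060 and 0.068 in centred log2 CPM. The median over 2783 genes compared was 0.33. Oocytes are known to make a shortened DICER1 from a promoter inside the gene, and counts per gene cannot tell the forms apart.

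Tarbp2, which encodes the double-stranded RNA-binding partner of DICER1, had 130, 120 and 123 CPM in the water oocytes. In the phthalate oocytes it had 198, 119 and 178 CPM. Phthalate oocytes 1 and 3 lay above all water oocytes and phthalate oocyte 2 just below them, so the groups overlapped. The log2 ratio was 0.41 from 106 and 134 counts, with limits of -0.13 and 0.96 on read pairs. On the deposited counts the limits were 0.032 and 0.79. Map3k12, a kinase gene that overlaps Tarbp2, had 10 and 2 counts. The annotated pseudogene Gm18584 shares 49.1% of the 50-base windows of the Tarbp2 transcript and had no row of its own. How reads that match both were treated is not given in the sources used here. The other known DICER1 partner of this kind, PACT (Prkra), had 2 counts in all, both in phthalate oocyte 1.

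**Figure D1:**
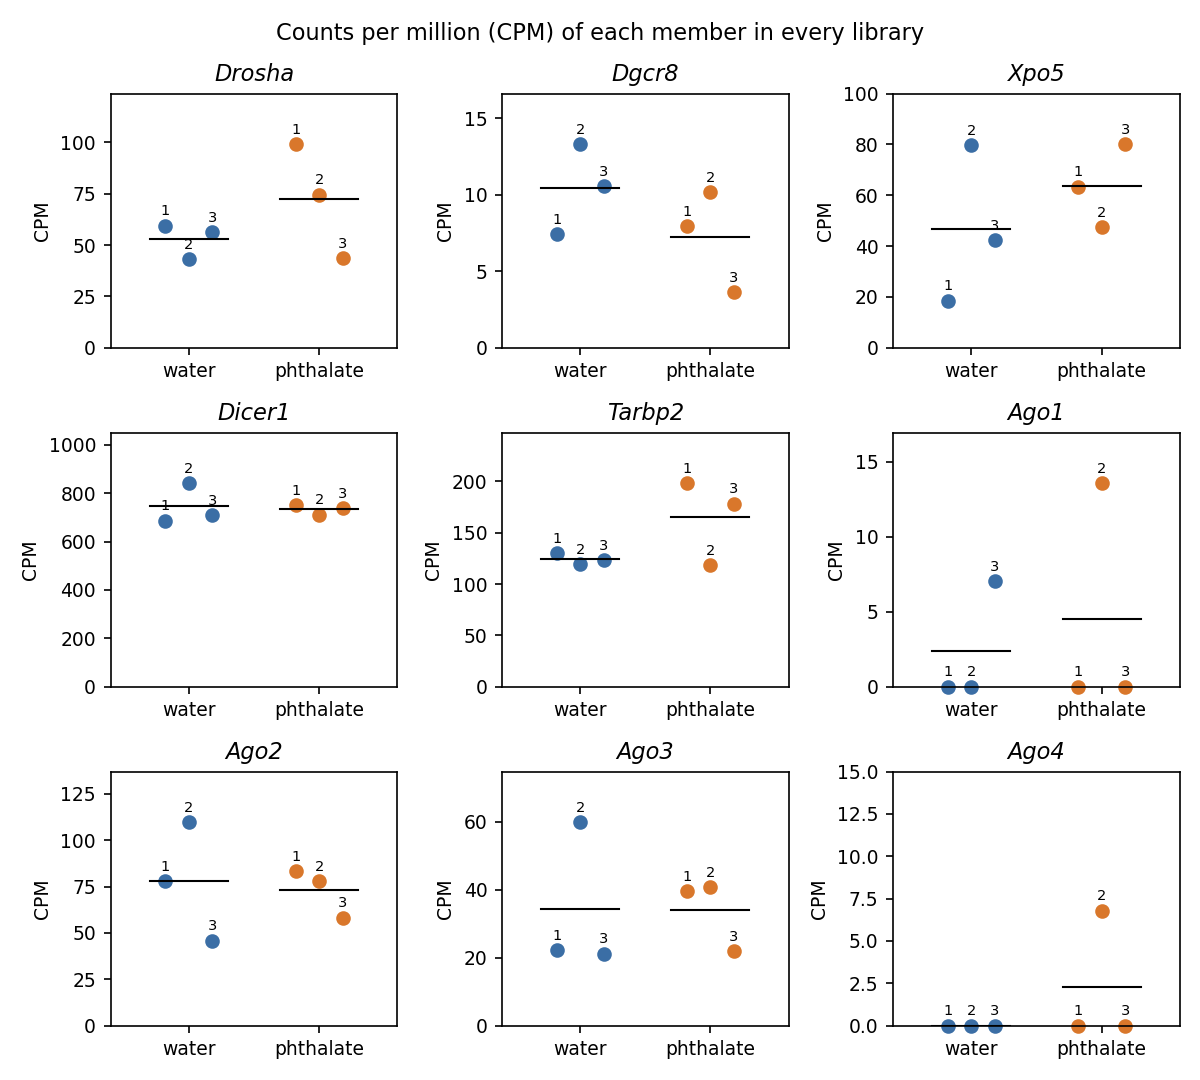
CPM of each of the 9 members (y axis, a separate scale per gene, from 0) in the 3 water and 3 phthalate oocyte libraries (numbered points), with the group mean as a line. In every panel the groups overlap; Dicer1 spans 686 to 841 CPM, whereas Ago1 and Ago4 are at 0 in most libraries.

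Among the Argonautes, the counts lay almost wholly on Ago2 and Ago3. Ago2, the Argonaute that can cleave a target, held 65.8% of the 193 Argonaute counts (95% exact interval on read pairs 55.4 to 75.2) and Ago3 held 30.1% (21.1 to 40.2). The share of Ago2 was 67.7% with water (52.9 to 80.3) and 63.8% with phthalates (48.5 to 77.3). It ranged from 56.1% to 77.8% over the libraries, so Ago2 held the most Argonaute counts in each of the 6.

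Ago2 itself had 77.9, 110 and 45.8 CPM in the water oocytes, against 83.2, 78.0 and 58.2 CPM in those given phthalates. The phthalate oocytes lay inside the water range. The log2 ratio was -0.087 (-0.85 to 0.67), from 67 and 60 counts. Ago3 had 22.3, 59.8 and 21.1 CPM in the water oocytes, against 39.6, 40.7 and 21.8 CPM in those given phthalates. Water oocyte 2 was the highest for both genes, and without it the log2 ratio moved from -0.027 to 0.68 for Ago3 and to 0.28 for Ago2.

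Ago1 and Ago4 were at the limit of detection. Ago1 had 2 counts in water oocyte 3, 4 in phthalate oocyte 2 and 0 in the remaining libraries. Ago4 had 2 counts in phthalate oocyte 2 and 0 elsewhere. A count of 0 in the water group allows up to 3 read pairs of Ago4, which are 6 of 854185 counts or 7.02 CPM. The ratio for Ago1 was 2.10, with limits from 0.109 to 124 on read pairs, and no ratio was formed for Ago4. Ago3, Ago1 and Ago4 lie side by side on chromosome 4 on the minus strand, at chr4:126331704-126429556, chr4:126435012-126468583 and chr4:126489541-126533472. The gaps between them are 5455 and 20957 bases, so a gene with counts in all 6 libraries adjoins a pair that was at 0 in most. Only 1.74% of the 50-base windows of Ago1 and none of those of Ago4 occur in transcripts of another gene. For Ago2 and Ago3 the shares were 3.52% and 0.778%, and the Ago2 windows were shared mainly with the pseudogene Gm6088.

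Levels of different genes were compared per kilobase of the longest annotated protein-coding transcript. On that scale Tarbp2 was highest, at 81.6 ± 3.40 CPM per kb with water and 108 ± 27.2 with phthalates (SD over 3 libraries each), and Dicer1 followed at 75.6 ± 8.48 and 74.4 ± 1.96. The ranges of these 2 genes over all libraries overlapped. Both stood above Drosha (11.6 ± 1.88 and 15.9 ± 6.08) in all 6 libraries without overlap. Xpo5 came next with 9.22 ± 6.07 and 12.5 ± 3.21, then Ago2 with 5.64 ± 2.31 and 5.30 ± 0.957, Ago3 with 2.21 ± 1.41 and 2.18 ± 0.679 and Dgcr8 with 2.41 ± 0.680 and 1.68 ± 0.768. Each of these neighbours overlapped with the next over the 6 libraries. Mean levels of Tarbp2 and Dicer1 exceeded those of 93.0% and 91.1% of 11858 genes with a count and a known length. For Drosha the share was 67.4%, for Xpo5 62.8%, for Ago2 49.4%, for Ago3 32.6%, for Dgcr8 31.4%, for Ago1 10.1% and for Ago4 1.86%.

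The place of the Argonautes in this order depended on the length used. The longest transcripts of Ago2 and Ago3 are 13800 and 15595 bases, against coding lengths of 2580 bases in both, and which ends the oocyte uses cannot be told from counts per gene. Per kilobase of coding length Ago2 moved to the third place, with a mean of 29.3 CPM per kb over the 6 libraries, after Tarbp2 (132) and Dicer1 (129). The order of those 2 genes was not settled on this scale, since Tarbp2 was the higher in only 2 of 6 libraries, both given phthalates. Ago2 then exceeded 67.1% of the genes, Xpo5 54.7% and Drosha 54.5%. Dicer1 remained above Ago2 in 6 of 6 libraries, by 13.7-fold per kilobase of transcript and 4.42-fold per kilobase of coding length. The 4 Argonautes have nearly equal coding lengths, and on that scale Ago2 was above Ago3 (13.3) in 6 of 6 libraries, with Ago1 at 1.34 and Ago4 at 0.437.

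**Figure D2:**
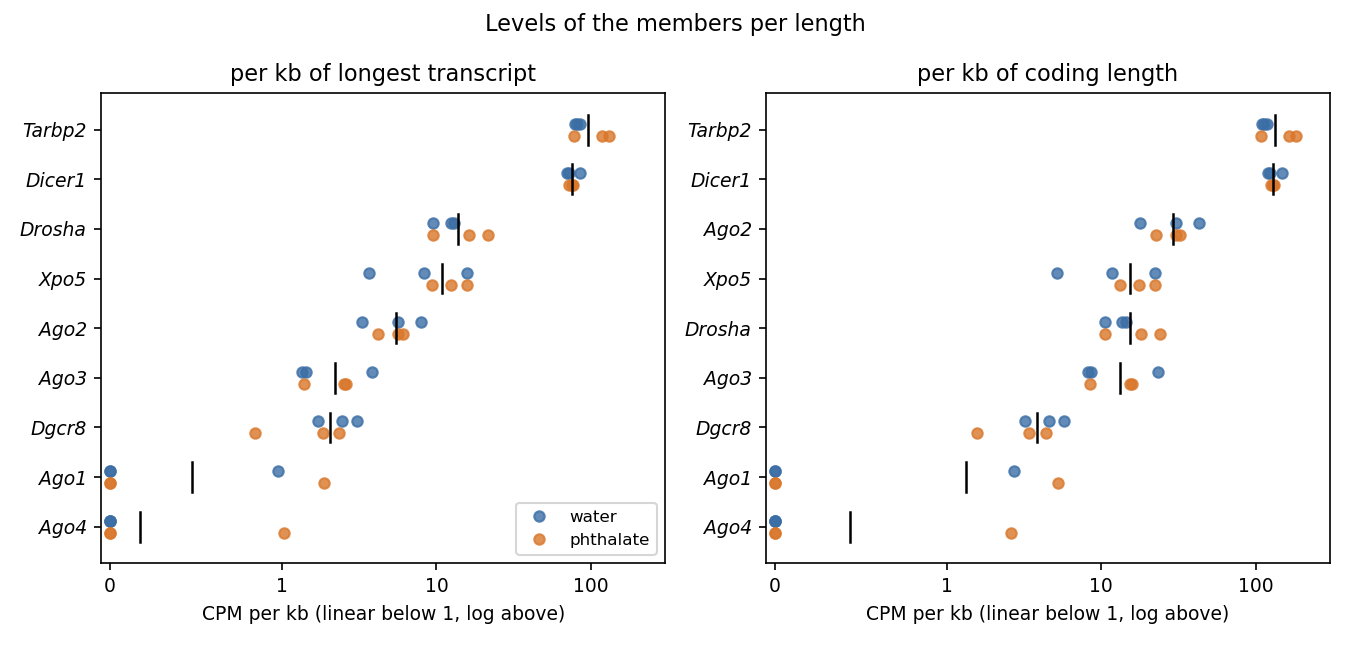
Level of each member in CPM per kb (x axis, linear below 1 and logarithmic above) for every library, per kilobase of the longest transcript (left) and of the coding length (right); black lines are means over the 6 libraries. Tarbp2 and Dicer1 stand apart at the top on both scales, and Ago2 moves from the fifth to the third place when only coding length is counted.

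Between the groups, 6 of the 9 members passed the filter on low counts (Dicer1, Tarbp2, Ago2, Drosha, Xpo5 and Ago3). A log2 ratio of at least 1 in size, which is a 2-fold difference, was found for 0 of these 6. The same was true of 2.78% of all 4644 genes that passed, 1.14% higher and 1.64% lower in the phthalate group. With 1 library left out the 2.78% became 3.83% to 4.72%, the latter without phthalate oocyte 3 and 4.65% without water oocyte 1. The CPM values of the groups did not overlap for 0 of the 6 members and for 10.0% of the 4644 genes, 4.52% higher and 5.49% lower with phthalates. Ratios were above 0 for Drosha, Xpo5 and Tarbp2 and below 0 for Dicer1, Ago2 and Ago3. The median over the 6 was 0.20, against 0.0089 over all 4644 genes, 90% of which lay between -0.72 and 0.66. Dgcr8, Ago1 and Ago4 stayed below the filter and entered none of these counts.

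As a sum, the 9 members took 0.110% of the counts with water (95% exact interval on read pairs 0.100 to 0.120) and 0.115% with phthalates (0.105 to 0.126). Per library the sum was 1002, 1266 and 1015 CPM in the water oocytes, against 1241, 1102 and 1124 CPM in those given phthalates. The groups overlapped, with water oocyte 2 the highest. The log2 ratio of the sums was 0.084 (-0.10 to 0.27). For the Argonautes alone it was -0.0026 (-0.61 to 0.60), for Drosha, Dgcr8 and Xpo5 together 0.37 (-0.20 to 0.96), and for Dicer1 with Tarbp2 0.055 (-0.16 to 0.27). Dicer1 holds most of the summed counts, and the 8 members without it gave 300 and 345 counts, a log2 ratio of 0.27 (-0.050 to 0.60). Each of these intervals includes 0.

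**Figure D3:**
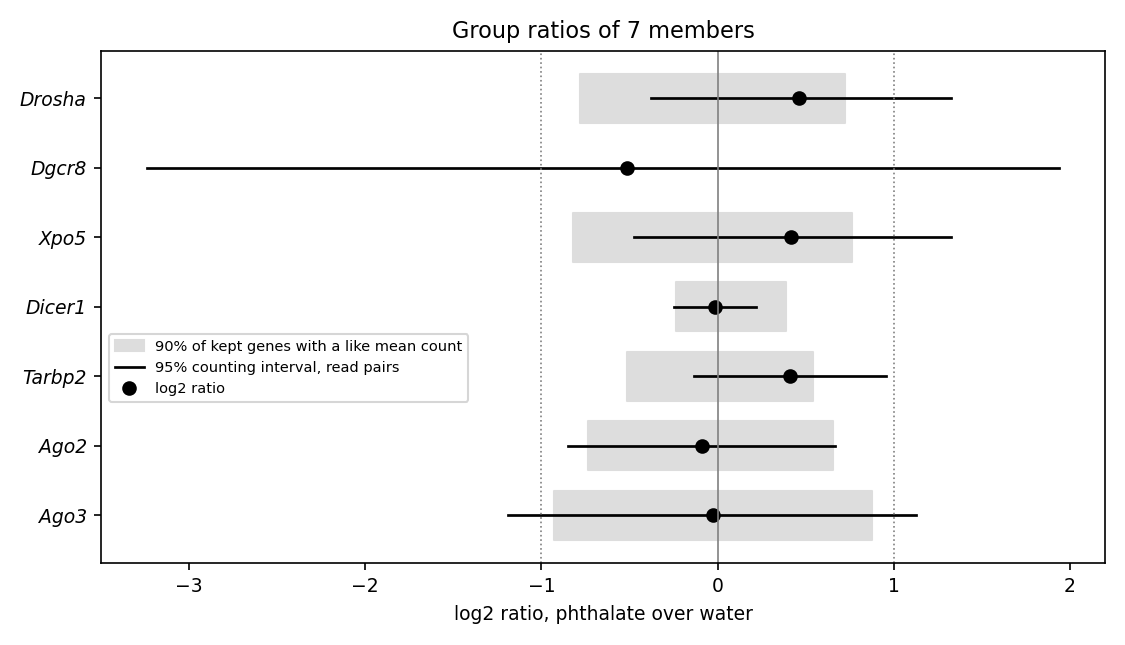
Log2 ratio of phthalate over water (x axis, summed counts) for 7 members, with 95% counting intervals on read pairs (black lines) and the range of 90% of the genes with a mean count within 1.5-fold of the member's (grey, for the 6 members that passed the filter). Dotted lines mark 2-fold; all 6 of those members lie inside the grey ranges, and Dgcr8, Drosha, Xpo5 and Ago3 have intervals that cross a 2-fold line. Ago1 and Ago4 are not drawn because of their counts of 6 and 2.

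The other genes of small RNA pathways were read in 7 lists of 80 genes, of which 49 passed the filter. Of these 49, 25 had a ratio above 0 and 24 below, with a median of 0.018, and 0 reached 2-fold. The groups did not overlap for 6 of the 49 (12.2%), against 10.0% of all genes. These were Ran, Fkbp5 and Gigyf2, higher in the phthalate oocytes, and Ddx17, Stip1 and Ahsa1, lower in them. RAN is the GTPase that drives nuclear transport, including that by exportin-5. Ran had 33.2 to 51.9 CPM in the water oocytes, against 58.2 to 67.8 in those given phthalates. Its log2 ratio was 0.66 (-0.28 to 1.63), from 34 and 51 counts. DDX17, a helicase that works with DROSHA, had 46.5 to 51.9 and 23.8 to 37.3 CPM, a ratio of -0.62 (-1.74 to 0.45). Both intervals include 0. These genes were singled out after their values were seen.

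Among 12 partners of the nuclear step, 3 of the 9 that passed were above 0 and 6 below. Erh, which encodes a small protein that binds DGCR8, had the most counts (286 in water, 241 in phthalate), followed by Safb2 (95 and 123), the highest ratio among those with a mean count of at least 20 (0.44, -0.12 to 1.02). Khsrp, which encodes an RNA-binding protein that promotes processing of some hairpins, had the lowest such ratio, at -0.56 (-1.36 to 0.21). Their median was -0.17.

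Of 11 genes for partners of DICER1 and other proteins that bind double-stranded RNA, 6 passed, with 3 ratios above 0 and 3 below. Stau1, which encodes a carrier of messenger RNA, had the most counts (231 and 247, log2 ratio 0.17). Tsn, which encodes a subunit of a nuclease that removes the discarded strand from Argonaute, had the highest ratio at 0.27. Eif2ak2, the interferon-linked kinase PKR, had 2 counts, both in water oocyte 1.

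Of 10 chaperones and co-chaperones that help load RNA into Argonautes, 9 passed, and their counts were uneven. Hsp90aa1 had 8318 and 8317 counts (log2 ratio 0.072) and Hspa8 1085 and 1141 (0.14). Fkbp5, a co-chaperone of HSP90, had the highest ratio at 0.42 (0.10 to 0.74), with 307 to 375 CPM in the water oocytes, against 386 to 515 in those given phthalates. Ptges3, the co-chaperone p23, had the lowest at -0.72 (-1.45 to -0.020). Stip1 (-0.35) and Ahsa1 (-0.42), which also assist HSP90, did not overlap between the groups. At the low end Cdc37 had 74 and 49 counts, and Fkbp4, with 20 and 18, did not pass. The list held ratios on both sides, 5 above 0 and 4 below.

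Silencing effectors act after an Argonaute has found its target, and 7 of 12 passed. The scaffold proteins that Argonautes recruit were represented by Tnrc6b (114 and 90 counts, log2 ratio -0.27), Tnrc6c (78 and 79) and, below the filter, Tnrc6a (25 and 11). Tnrc6b was uneven, from 36.4 CPM in phthalate oocyte 3 to 183 in phthalate oocyte 2. Gigyf2, which represses translation of bound messages, had 155 to 186 CPM in the water oocytes, against 210 to 285 in those given phthalates, a log2 ratio of 0.53 (0.074 to 0.99). Limits that leave out 0 here cover counting error only, as for Fkbp5 and Ptges3. The same holds for 3 more chaperone genes: Hsp90aa1 (0.0096 to 0.13), Hsp90ab1 (0.095 to 0.47) and Ahsa1 (-0.77 to -0.069).

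Of 10 genes that tail or degrade small RNAs and other RNAs, 5 passed. Xrn2, a nuclear exonuclease, had 61 and 70 counts (0.27) and Eri1, an exonuclease that trims small RNAs, 43 and 27 (-0.60, -1.70 to 0.45). Lin28a, which blocks maturation of let-7, had 37.1, 36.6 and 31.7 CPM in the water oocytes, against 111, 23.7 and 7.27 in those given phthalates. Phthalate oocyte 1 was the highest and the other two were below every water oocyte. Tut4, a uridylyltransferase of let-7 precursors, was at 0 in all libraries, while the related Tut7 had 36 and 24 counts.

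Genes of the piRNA pathway, which in the germline silences transposons without DICER1, were also present. Of 20, 11 passed, 5 above 0 and 6 below, with a median of -0.065. That median had no stable sign: it was above 0 without water oocyte 2 (0.12), without any 1 of the phthalate oocytes (0.014 to 0.062) and without the filter (0.091). Gtsf1, a cofactor of PIWI cleavage, led with 630 and 540 counts (-0.15, -0.39 to 0.089), followed by Tdrd1, a scaffold of the PIWI granule, with 246 and 219. Piwil1 had 57 and 69 counts (0.35, -0.41 to 1.12), Piwil2 5 counts and Piwil4 0. Per kilobase of coding length the mean level of Piwil1 (29.7 CPM per kb) was close to that of Ago2 (29.3), whereas per kilobase of longest transcript it was 19.1 against 5.47. Henmt1, the methyltransferase that protects piRNA ends, had the lowest ratio, at -0.43 (-1.18 to 0.29).

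The 5 genes described as targets of endogenous small interfering RNAs in mouse oocytes differed widely in counts. Kif4 (254 and 220, log2 ratio -0.14) and Pdzd11 (125 and 126, 0.084) passed the filter. Ppp4r1 had 18 and 6 counts, Rangap1 11 and 8 and Hdac1 4 and 7, too few for a comparison.

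**Figure D4:**
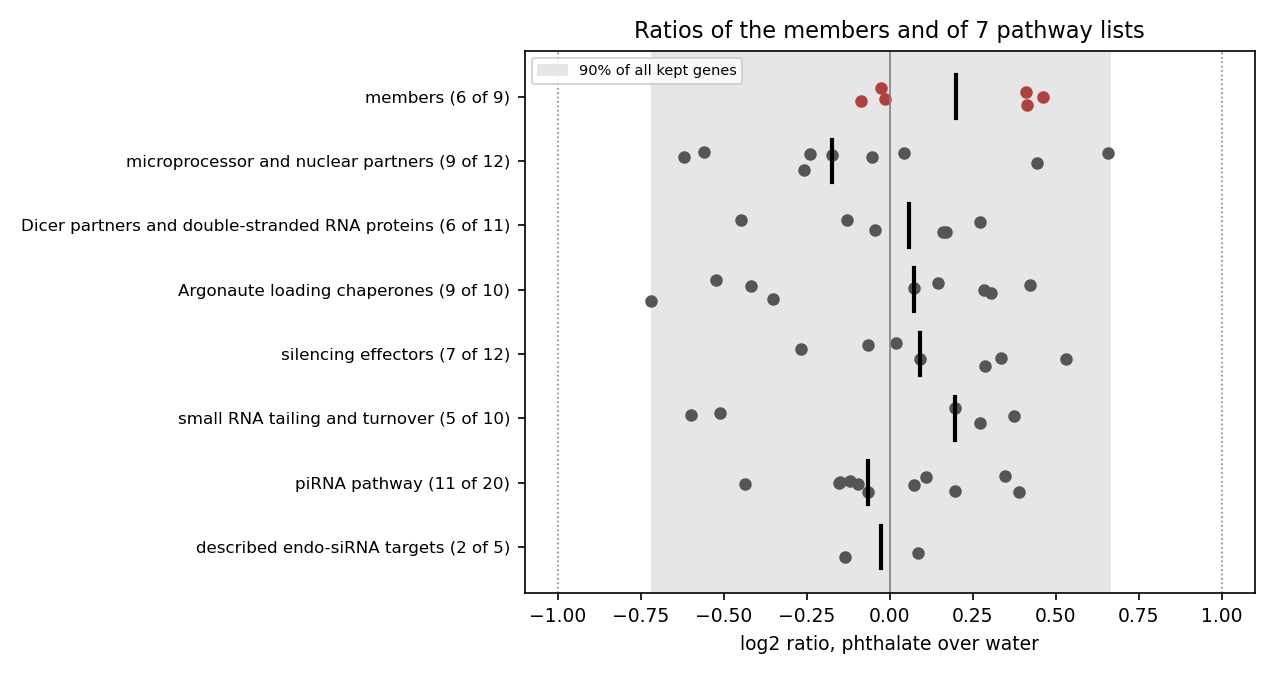
Log2 ratio of phthalate over water (x axis) for each gene that passed the filter (points, spread vertically only for legibility), in the members and the 7 lists, with the list median as a black line; numbers in brackets are genes that passed out of all. Grey covers 90% of the 4644 genes, and no point reaches the dotted 2-fold lines at -1 and 1.

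The products of this machinery were outside the measurement. The libraries started from an oligo(dT) primer, which does not capture mature microRNAs. Of 1226 rows for microRNA genes, 13 had a count, and 163 of their 183 counts lay on Mir7035 and Mir682. No other row had more than 5. The mature sequences of these hairpins are shown because they are the only microRNA rows with counts in every library, with the seed (bases 2 to 8) in capitals, from RefSeq on GRCm38.p6.
mmu-miR-7035-5p: gGCUGGGAgaguggcucagaa
mmu-miR-7035-3p: uCUGAGCCgcugucccugcag
mmu-miR-682: cUGCAGUCacagugaagucug
The 3 sequences have 3 different seeds. The first 2 lie at chr5:136105527-136105547 and chr5:136105583-136105603 (plus strand), within an exon of Rasa4, a gene with 677 counts. The third lies at chr13:75645119-75645139 (plus strand), within an exon of the pseudogene Gm4149. Mir7035 had 15, 15 and 22 counts in the water oocytes, against 10, 7 and 17 in those given phthalates. Mir682 had 21, 15 and 12 against 1, 16 and 12. Reads on these rows can come from the transcripts that span the hairpins and are not a measure of mature microRNA.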

How the data were processed

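The members and lists were chosen with earlier results of these data known. The deposited table of the authors holds raw counts (whole numbers, not normalized) by gene symbol. Its 92 ERCC spike-in rows stayed out of all totals here. Per the labels' protocols, polyadenylated RNA of single oocytes was amplified by Smart-seq3 (oligo(dT) priming, template switching, PCR) and read in pairs of 150 bp on a MiSeq. Per the submitters' processing notes, cutadapt, Trimmomatic, HISAT2, DESeq2 and mm10 were used. The counting tool, annotation, strand and use of molecular identifiers are not given in the sources used here.

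Library totals were 252267 to 300917 counts, and counting error limits the members with few counts most. Genes were filtered with edgeR 4.0.16 filterByExpr (minimum count 10, minimum total 15; R 4.3.3), which 4644 genes passed. Group sums were divided by TMM-scaled totals and given as log2 ratios without pseudocount. In the results without the filter, a group sum that lacked any count was replaced by 3 counts. The share of all genes past 2-fold and the piRNA median given without the filter include such ratios. Shares and ratios carry 95% Clopper-Pearson intervals. The ratio function was tested on simulated independent counts that were not halved to read pairs. That test therefore does not cover the intervals on read pairs. Positions and lengths came from GENCODE M21 (GRCm38, the build that mm10 names). Named genes are all members and, per list, the 2 with the most counts and the highest and lowest ratio at a mean count of at least 20. One gene that this rule names is not reported here. The genes whose groups did not overlap were named after their values were seen. The same holds for Prkra, Eif2ak2, Tnrc6a, Tnrc6c, Lin28a, Tut4, Tut7, Piwil2, Piwil4, Ppp4r1, Rangap1, Hdac1, Cdc37, Fkbp4 and Hsp90ab1, which fall outside this rule. Likeness to Dicer1 used counts plus 1. Alternatives were other scaling, halving to read pairs, no filter, other lengths and leaving out each library.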

Additional observations from a re-analysis of the deposited data

How the results depend on the processing

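Under library totals, DESeq2 size factors and totals without Rn45s, the ratios of the 6 members that passed the filter kept their sign and 0 reached 2-fold. Over all alternatives 6 of 60 such ratios changed sign, in Dicer1, Ago2 and Ago3, each with 1 library left out. The 60 include the halving to read pairs, which by construction leaves each ratio as it was. All 3 genes changed sign without water oocyte 2 (0.0998, 0.28 and 0.68). Dicer1 did so without phthalate oocyte 2 (0.032), and Ago2 and Ago3 without phthalate oocyte 3 (0.0048 and 0.16). The number of members past 2-fold ranged from 0 to 1 with 1 library left out (Xpo5, without water oocyte 2), and the log2 ratio of the summed members from 0.0098 to 0.22. The share of all genes past 2-fold ranged from 3.83% to 4.72% with 1 library left out, where fewer counts enter, and was 19.9% without the filter, where genes with few counts enter. Listed genes past 2-fold ranged from 0 to 3 (Ptges3, Lin28a and Tut7, all lower, without phthalate oocyte 1) and were 6 without the filter, none of which passed it. Of 70 list medians, 15 changed sign, 5 of them that of the piRNA pathway and 0 that of the nuclear partners. The level of Dicer1 over Ago2 was 13.7, from 12.8 to 14.7 with 1 library left out, 23.9 with median transcript lengths and 4.42 with coding lengths, an alternative chosen after seeing the data. Median lengths put Ago3 above Ago2 (Ago2 over Ago3 0.109), since most annotated coding transcripts of Ago3 are short fragments.

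No paired analysis was possible because the labels do not say that a number marks a shared animal or day, and the deviations of same-numbered libraries had correlations of only 0.060, 0.0027 and 0.034, all below the 0.1 set for taking the numbers as pairs. The ratios also come from no test.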
